A study of Mus musculus with 2 samples.

Results

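The 45 genes described here take part in making ribosomes or in controlling it, and were chosen from a list of nucleolar and ribosome assembly genes. All 45 were found among the 19394 genes of the count matrix. They fall into 6 genes of transcription by RNA polymerase I (Pol I), 9 of small nucleolar ribonucleoproteins (snoRNPs), 13 of small subunit assembly, 13 of large subunit assembly and 4 nucleolar proteins that act at several steps. They were measured by droplet single-cell RNA sequencing in 1 library of cells given 0.2 µM panobinostat, a drug that inhibits histone deacetylases, for 48 h and 1 library of cells given its solvent DMSO (vehicle).

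Both libraries hold renal progenitors marked by Pax2, from C57Bl/6 mice of 9 weeks that carry Pax2.rtTA;TetO.Cre; R26.mT/mG. In these mice the Pax2 promoter drives an inducible Cre, which switches a reporter to GFP in cells that have expressed Pax2 and in their descendants. Cells that grew out of glomeruli over 5 days of culture were sorted for GFP, starved for 16 h and then treated. The labels give 2 mice and do not say how they were divided between the treatments, so the treatments and the libraries that carry them cannot be told apart. With 1 library per treatment no test between treatments is possible, no p-value is given, and every interval below covers counting error alone.

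Ribosome assembly starts when Pol I copies the rRNA genes into a long precursor. Box C/D snoRNPs methylate that precursor and box H/ACA snoRNPs turn chosen uridines into pseudouridine, each led to its site by a small nucleolar RNA. Separate sets of assembly factors, helicases, GTPases and nucleases then fold, cut and export the small and the large subunit. MYC, a transcription factor that pairs with MAX at the E-box CACGTG, is known to activate many genes of this pathway in growing cells.

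The panobinostat library held 2281 cells with 104188927 UMIs (unique molecular identifiers, each counting 1 captured transcript), and the vehicle library 2854 cells with 90754967 UMIs. Cells held a median of 42394 UMIs with panobinostat and 27924 with vehicle. The 16-base barcodes shared between the libraries numbered 0. The 6 markers of the Pax2 lineage were present in both libraries and summed to 4239 CPM (UMIs per 1000000 UMIs of a library) with panobinostat and 8179 CPM with vehicle. Of them Pax8 was level, at 119.9 CPM with panobinostat and 120.2 CPM with vehicle. Pax2 stood at 24.9 CPM with panobinostat and 40.4 CPM with vehicle, and Krt8 was more than 2-fold lower, at 1710 CPM with panobinostat and 4587 CPM with vehicle. Cdh6, Krt18 and Cldn1 had log2 ratios of panobinostat over vehicle of -0.88, -0.52 and -0.43.

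Markers of other cell types differed between the libraries too. The 4 leukocyte markers summed to 67.8 CPM with panobinostat and 4.86 CPM with vehicle, of which Cd68 held 65.5 CPM with panobinostat and 4.11 CPM with vehicle, while Ptprc stood under 2 CPM in each library. The 3 proximal tubule markers summed to 14.5 CPM with panobinostat and 9.64 CPM with vehicle. Lrp2 among them stood at 11.7 CPM with panobinostat and 0.650 CPM with vehicle, and Aqp1 at 1.95 CPM with panobinostat and 8.24 CPM with vehicle. Of the podocyte markers, Synpo stood at 11.8 CPM with panobinostat and 5.86 CPM with vehicle and Podxl at 7.62 CPM with panobinostat and 3.86 CPM with vehicle, while Wt1 had 0 UMIs with vehicle. The 4 mesangial or fibroblast markers summed to 3.96 CPM with panobinostat and 0.628 CPM with vehicle. The 5 endothelial markers summed to 3.14 CPM with panobinostat and 9.11 CPM with vehicle, and Tie1 had 0 UMIs with panobinostat. They did not move together. Emcn stood at 0.0864 CPM with panobinostat and 6.68 CPM with vehicle, while Kdr stood at 2.57 CPM with panobinostat and 0.793 CPM with vehicle. Without cells holding UMIs of Pecam1, Cdh5 or Emcn, the count of ribosome biogenesis genes called lower below was unchanged at 20. The part of the other markers in the results was not tested.

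Promoter windows of 300 bases, from 250 before to 50 after the RefSeq start site on GRCm38.p6, matched 40 of the 45 genes; Fbl, Myc, Npm1, Bop1 and Rrp12 had none. The E-box CACGTG, which reads the same on both strands, occurred in 8 of the 40 (20.0%). It occurred in 12.3% of 7037 genes that reached 10 CPM in at least 1 library, in 8.1% of all 27025 genes with a window and in 19.8% of 106 other ribosome biogenesis genes. A gene with several start sites has several windows, 6 for Ubtf, and was counted when any of them held the motif. The 5 windows below include those of 3 genes with the motif that were lower with panobinostat (Nop2, Tsr1 and Wdr43). Rrn3 also holds the motif and differed by less than 2-fold. Nop10, the 1 gene that was higher, has no E-box in its window. Each printed stretch runs 5′ to 3′ on the plus strand from 90 bases before to 30 bases after the start, and capitals mark the E-box.
Nop2, chr6:125131793-125131912: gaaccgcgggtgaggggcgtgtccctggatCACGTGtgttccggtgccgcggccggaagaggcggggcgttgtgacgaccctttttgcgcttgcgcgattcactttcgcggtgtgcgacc
Tsr1, chr11:74897990-74898109: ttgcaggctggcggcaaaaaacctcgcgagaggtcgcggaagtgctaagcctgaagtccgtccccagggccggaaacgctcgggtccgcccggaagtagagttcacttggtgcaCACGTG
Wdr43, chr17:71616125-71616244: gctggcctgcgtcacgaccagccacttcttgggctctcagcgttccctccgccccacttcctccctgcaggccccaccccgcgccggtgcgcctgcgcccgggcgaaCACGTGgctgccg
Rrn3, chr16:13780609-13780728: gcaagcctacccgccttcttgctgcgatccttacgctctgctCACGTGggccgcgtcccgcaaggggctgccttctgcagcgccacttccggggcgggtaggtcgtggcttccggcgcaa
Nop10, chr2:112261836-112261955: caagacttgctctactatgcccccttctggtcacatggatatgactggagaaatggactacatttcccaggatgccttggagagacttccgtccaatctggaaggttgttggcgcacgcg
Counting the first transcribed base as 1, the E-box began at base -60 in Nop2, 25 in Tsr1, 18 in Wdr43 and -48 in Rrn3, which holds another at -215 outside the printed stretch. It began at 38 in Utp20 and 41 in Mybbp1a, both called lower, and at 29 in Ltv1 and 3 in Pes1, neither of them called. The printed Nop10 stretch has no CACGTG. Of the 8 genes with the motif 5 were called lower with panobinostat, and of the 32 without it 13 were. The ETS core CGGAAG, searched on both strands and not overlapping the E-box in its letters, occurred in 57.5% of the 40 genes, 38.9% of genes past 10 CPM and 68.9% of the other ribosome biogenesis genes. It was present in 23 of the 40 genes, of which 7 were called lower, and absent from 17, of which 11 were. Among all genes past 10 CPM, 11.0% were lower. That share was not split by motif, so the splits of the E-box and the ETS core have no background to compare with. A GC box (GGGCGG, both strands) occurred in 77.5% of the 40 genes against 73.9% of genes past 10 CPM, a CCAAT box (CCAAT, both strands) in 35.0% against 43.1%, and a TATA box (TATAAA, both strands) in 5.0% against 8.0%. These matches are letters in a window, not sites shown to be bound.

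Transcripts of ribosome biogenesis genes were lower in panobinostat-treated than in vehicle-treated progenitors in each of the 5 role groups. Together the 45 genes took 3015 of every 1000000 UMIs with panobinostat and 6273 with vehicle. A gene was called when its CPM differed 2-fold or more with a 95% interval that left out equality, given a level of 10 CPM on one side or both. By this rule of size 20 of the 44 genes past 10 CPM were lower with panobinostat, 1 was higher and 23 were neither. Among all 8872 genes past 10 CPM, 11.0% were lower and 9.85% higher. The median log2 ratio of panobinostat over vehicle was -0.95 for the 44 genes and -0.07 for all genes past 10 CPM. Of the 44 ratios 42 were below 0, and in 41 the whole interval was. Polr1b, Rrp12 and Nat10 passed 10 CPM only through the vehicle library, and Wdr74, a large subunit assembly factor, did not pass, with 4.71 CPM after panobinostat and 4.57 CPM after vehicle.

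**Figure D1:**
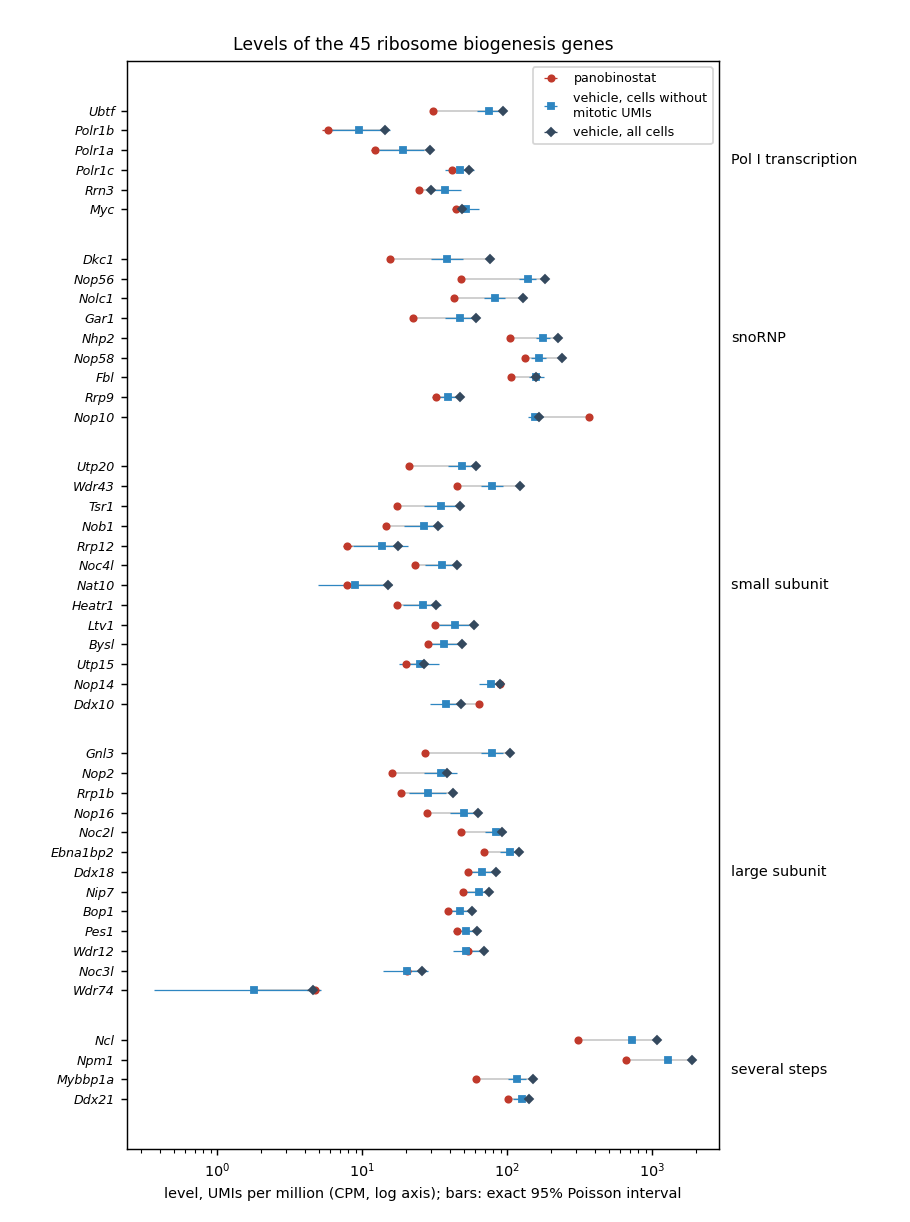
Level of each of the 45 ribosome biogenesis genes in CPM (UMIs per 1000000, log axis), grouped by role, in panobinostat cells (circles), vehicle cells without mitotic UMIs (squares) and all vehicle cells (diamonds), with exact 95% Poisson intervals. In most rows the panobinostat point lies to the left of both vehicle points, and for Nop10 (364.96 CPM against 166.80 CPM in all vehicle cells) it lies to the right.

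These ratios compare shares of a cell's transcripts, and panobinostat cells held more UMIs each. On a scale of UMIs per cell without scaling, 7 genes were at least 2-fold lower, 1 was higher, and the median was -0.42, where that of all genes was 0.46. On that scale 82.3% of the calls among all genes past 10 CPM were higher ones, against 47.3% with CPM. The 7 were Dkc1, Gnl3, Ncl, Nolc1, Nop56, Ubtf and Utp20.

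Among the 6 genes of Pol I transcription, which here include Myc, 3 were called lower, 0 higher, and the median of their log2 ratios was -0.83. Ubtf, which encodes the factor that keeps active rRNA genes open and helps Pol I to start (chromosome 11, 102304560 to 102319742, minus strand, GRCm38), stood at 30.9 CPM with panobinostat and 93.1 CPM with vehicle. Its ratio was -1.59 (95% interval -1.65 to -1.53), the lowest of the group. Polr1b, the second largest Pol I subunit, stood at 5.77 CPM with panobinostat and 14.3 CPM with vehicle, a log2 ratio of -1.31. The largest subunit, Polr1a, stood at 12.2 CPM with panobinostat and 29.2 CPM with vehicle (-1.27). The subunit Polr1c, which Pol I shares with Pol III, differed less, with 41.6 CPM after panobinostat and 54.6 CPM after vehicle (-0.39). Rrn3, the factor that makes Pol I competent to initiate, stood at 24.5 CPM with panobinostat and 30.0 CPM with vehicle (-0.29, interval -0.37 to -0.21).

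Myc itself stood at 44.3 CPM with panobinostat and 49.1 CPM with vehicle, so its log2 ratio of -0.15 (interval -0.21 to -0.09) was the closest to 0 in the group. Of its 10 family members and partners, Mxi1 and Mxd1 were called, both higher, and both encode proteins that pair with MAX and oppose MYC at E-boxes. Among all genes past 10 CPM, 9.85% were higher. Mxd4 (0.83), Mlx (-0.15), Mnt (-0.07) and Mga (-0.06) were not called, and Mycn, Mycl and Mxd3 did not pass 10 CPM. Mxi1 stood at 38.6 CPM with panobinostat and 15.8 CPM with vehicle, a log2 ratio of 1.29 (interval 1.21 to 1.38). Mxd1 stood at 10.4 CPM with panobinostat and 3.92 CPM with vehicle, a log2 ratio of 1.41, and passed 10 CPM through the panobinostat library alone. Max, the common partner, stood at 35.4 CPM with panobinostat and 38.5 CPM with vehicle (-0.12).

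The snoRNP genes were split within one complex. Of the 9 genes 8 had a ratio below 0 with the whole interval there, 5 of these were called lower, 1 was called higher, and the median ratio was -1.10. Dkc1, the pseudouridine synthase of the box H/ACA particle and also a protein of telomerase (chromosome X, 75095854 to 75109777, plus strand), had the lowest ratio of all 44 genes. It stood at 15.6 CPM with panobinostat and 76.1 CPM with vehicle, a log2 ratio of -2.28 (interval -2.36 to -2.21). Its partners Gar1 and Nhp2 were lower too: Gar1 stood at 22.5 CPM with panobinostat and 60.5 CPM with vehicle (-1.43), and Nhp2 at 104.4 CPM with panobinostat and 223.9 CPM with vehicle (-1.10). Nop10, the remaining core protein of that particle (chromosome 2, 112261926 to 112263269, plus strand), went the other way. It stood at 365.0 CPM with panobinostat and 166.8 CPM with vehicle, a log2 ratio of 1.13 (interval 1.10 to 1.16).

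In the box C/D particle, the scaffold protein Nop56 (chromosome 2, 130274430 to 130279313, plus strand) stood at 48.2 CPM with panobinostat and 182.5 CPM with vehicle, a log2 ratio of -1.92 (interval -1.97 to -1.88). Its paralog Nop58 stood at 132.2 CPM with panobinostat and 237.3 CPM with vehicle (-0.84), and the methyltransferase Fbl at 106.7 CPM with panobinostat and 157.4 CPM with vehicle (-0.56), so neither was called. Nolc1, a chaperone that accompanies snoRNPs in the nucleolus and in Cajal bodies, stood at 42.9 CPM with panobinostat and 128.4 CPM with vehicle (-1.58). Rrp9, a protein of the U3 particle, had a ratio of -0.55. The annotation places 21 small nucleolar RNA genes inside 7 of the 45 genes, among them 5 inside Nop56, 4 inside Nop58 and 3 each inside Gnl3, Ncl and Wdr43. These small RNAs were not analysed here.

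**Figure D2:**
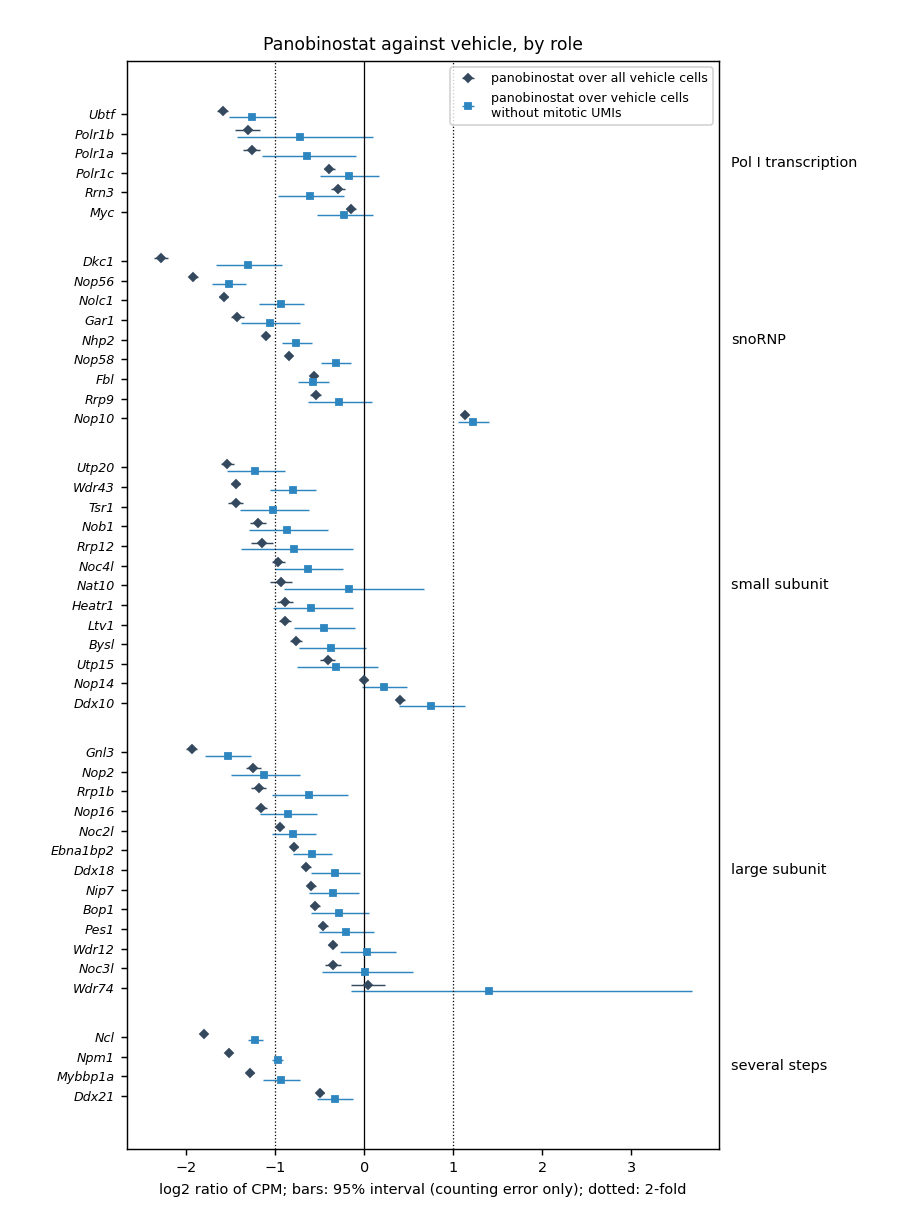
Log2 ratio of CPM for each of the 45 genes, grouped by role, as panobinostat over all vehicle cells (diamonds) and over vehicle cells without mitotic UMIs (squares), with 95% intervals for counting error and dotted lines at 2-fold. The squares lie nearer to 0 than the diamonds for most genes, while Nop10 lies beyond the right-hand line in both comparisons (1.13 and 1.22).

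Of the 13 small subunit genes 5 were called lower and 0 higher, and their median log2 ratio was -0.94. Utp20, a large scaffold protein of the early small subunit precursor (chromosome 10, 88746607 to 88826804, minus strand), stood at 20.9 CPM with panobinostat and 60.8 CPM with vehicle, a log2 ratio of -1.54 (interval -1.61 to -1.47). Wdr43, a subunit of the complex that joins rRNA transcription to early processing, stood at 44.9 CPM with panobinostat and 122.4 CPM with vehicle (-1.45). Tsr1, a GTPase-like factor of late small subunit particles, stood at 17.2 CPM with panobinostat and 47.0 CPM with vehicle (-1.45). Nob1, the nuclease that makes the last cut of small subunit rRNA, had a ratio of -1.19 at 14.6 CPM with panobinostat and 33.4 CPM with vehicle. Rrp12, a factor of subunit export, had a ratio of -1.15 at 7.90 CPM with panobinostat and 17.5 CPM with vehicle. Noc4l (-0.97), the rRNA acetyltransferase Nat10 (-0.94), Heatr1 (-0.89), Ltv1 (-0.89), Bysl (-0.77) and Utp15 (-0.41) were lower by less than 2-fold. Nop14 was level, at 89.5 CPM with panobinostat and 89.8 CPM with vehicle, and its interval of -0.05 to 0.04 included 0. The helicase Ddx10 was the highest of the group, at 63.9 CPM with panobinostat and 48.2 CPM with vehicle (0.41, interval 0.35 to 0.46).

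Large subunit genes past 10 CPM numbered 12, of which 4 were called lower and 0 higher, and their median log2 ratio was -0.72. Gnl3, which encodes the GTP-binding protein nucleostemin (chromosome 14, 31012433 to 31019152, minus strand), stood at 27.0 CPM with panobinostat and 103.7 CPM with vehicle, a log2 ratio of -1.94 (interval -2.00 to -1.88). Nop2, an rRNA methyltransferase known as a marker of proliferating cells, stood at 16.1 CPM with panobinostat and 38.3 CPM with vehicle (-1.25). Rrp1b stood at 18.5 CPM with panobinostat and 42.2 CPM with vehicle (-1.19), and Nop16 at 27.9 CPM with panobinostat and 62.4 CPM with vehicle (-1.16). The complex of Pes1, Bop1 and Wdr12, which is needed to process the large subunit rRNA, differed little: the ratios were -0.46 for Pes1, -0.56 for Bop1 and -0.36 for Wdr12. The remaining 5 lay between -0.95 for Noc2l and -0.35 for Noc3l, the highest of the group. Noc3l stood at 20.4 CPM with panobinostat and 26.0 CPM with vehicle. Nop56, Wdr12 and Ddx18 share the end of a transcript with annotated copies at 97% identity or more, so their counts are less certain.

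Genes for 3 of the 4 nucleolar proteins that act at several steps were called lower, and the median ratio was -1.40. Ncl, the RNA-binding protein nucleolin (chromosome 1, 86344719 to 86359400, minus strand), stood at 309.7 CPM with panobinostat and 1077 CPM with vehicle, a log2 ratio of -1.80 (interval -1.82 to -1.78). Npm1, the histone and ribosomal protein chaperone nucleophosmin (chromosome 11, 33152287 to 33163206, minus strand), stood at 654.3 CPM with panobinostat and 1872 CPM with vehicle (-1.52). Mybbp1a, a nucleolar MYB-binding protein, stood at 61.3 CPM with panobinostat and 149.7 CPM with vehicle (-1.29). The helicase Ddx21 stood at 100.6 CPM with panobinostat and 141.7 CPM with vehicle (-0.49). Without Ncl and Npm1 the summed level of the other 43 genes was 2051 CPM with panobinostat and 3324 CPM with vehicle.

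The lower levels held over most cells, not over a few. Summed per cell, the 45 genes had a median of 3001 UMIs per 1000000 with panobinostat (10th to 90th percentile 2416 to 3670) and 6105 with vehicle (3804 to 9161). Of panobinostat cells 92.9% lay under the 10th percentile of vehicle cells, and without Ncl and Npm1 53.3% did. As UMIs, the same medians were 129 per panobinostat cell and 175 per vehicle cell. Each cell was then thinned to 18663 UMIs to compare detection at 1 depth, which left out 60 panobinostat cells and 453 vehicle cells. At least 1 Dkc1 UMI was then found in 24.9% of 2221 panobinostat cells (exact 95% interval 23.1 to 26.7) and 67.8% of 2401 vehicle cells (65.9 to 69.6), and unthinned in 47.4% and 78.2%. For Gnl3 the thinned shares were 35.7% with panobinostat and 80.3% with vehicle (unthinned 63.1% and 87.0%). Nop10 was found in 99.7% of thinned panobinostat cells and 93.2% of thinned vehicle cells (unthinned 99.7% and 96.8%). All cells make ribosomes, so no cell type here gives a background share from free RNA.

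**Figure D3:**
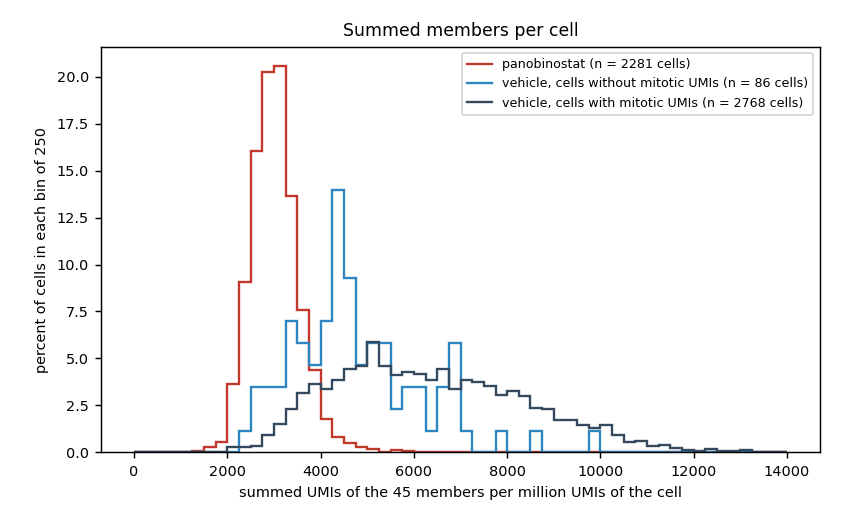
Distribution over cells of the summed UMIs of the 45 genes per 1000000 UMIs of the cell, as percent of cells in bins of 250, for panobinostat cells, vehicle cells without mitotic UMIs and vehicle cells with mitotic UMIs. Panobinostat cells form 1 narrow peak near their median of 3001, and the 86 vehicle cells without mitotic UMIs (median 4507) lie between it and the other vehicle cells (median 6155).

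Panobinostat cells held few UMIs of mitotic genes and vehicle cells many, with medians of 4.0 and 28.5 per cell. The 20 mitotic genes summed to 96.4 CPM with panobinostat and 2026 CPM with vehicle, and the 20 S-phase genes to 206.6 and 1474 CPM with panobinostat and vehicle. The panobinostat library was therefore also compared with vehicle cells that held 0 UMIs of the 20 mitotic genes. Only 86 of the 2854 vehicle cells did, with 1682250 UMIs in all and a median of 19395 per cell, so this set is shallow and its intervals are wide. Its S-phase genes summed to 250.9 CPM, close to the panobinostat level, but single genes differed. Rrm2 was called lower with panobinostat (-1.56), and Mcm3 (-0.98), Pclaf (-2.66) and Dtl (-2.00) had intervals below 0. Tyms (0.30), Rrm1 (0.27), Uhrf1 (0.37) and Fen1 (0.36) were among those above 0, with intervals that included 0. The set holds 1 cell with 215 UMIs of the endothelial genes Pecam1, Cdh5 and Emcn. Over the set the 5 endothelial markers summed to 132.0 CPM. Without all cells that held such UMIs the count of genes called lower was the same and the median was -0.61. Both comparisons use the same panobinostat cells, and the 86 cells are part of the vehicle library.

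Against these cells most of the genes were still lower with panobinostat, by less. Together the 45 genes stood at 3015 CPM with panobinostat and 4671 CPM in vehicle cells without mitotic UMIs. Of the 42 genes past 10 CPM in this comparison, 9 were at least 2-fold lower, 1 was higher and 37 had a ratio below 0. Among all 8766 genes past 10 CPM, 7.84% were lower and 10.3% higher. The median log2 ratio was -0.62 for the 42 genes and -0.02 for all genes. On UMIs per cell without scaling 0 genes were lower and 7 were higher, and the median was 0.61 where that of all genes was 1.20. On that scale 5462 of all genes past 10 CPM were called higher and 71 lower.

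The 9 genes called lower in this comparison came from every role. Gnl3 was the lowest, at 27.0 CPM with panobinostat and 78.5 CPM in vehicle cells without mitotic UMIs (-1.54, interval -1.79 to -1.28). Nop56 stood at 48.2 CPM with panobinostat and 138.5 CPM in those vehicle cells (-1.52, interval -1.71 to -1.33). Dkc1 stood at 15.6 CPM with panobinostat and 38.6 CPM in those vehicle cells, and its ratio of -1.31 compares with -2.28 against all vehicle cells. That vehicle level rests on 65 UMIs. Dkc1 was not called after thinning (-0.87), nor with only those vehicle cells that held at least 21197 UMIs (-0.68). Ubtf stood at 30.9 CPM with panobinostat and 74.3 CPM in vehicle cells without mitotic UMIs (-1.27). Ncl stood at 309.7 CPM with panobinostat and 723.4 CPM in those vehicle cells (-1.22, interval -1.31 to -1.14). The ratios of the other 4 were -1.22 for Utp20, -1.12 for Nop2, -1.06 for Gar1 and -1.02 for Tsr1. Their vehicle levels rest on 82, 59, 79 and 59 UMIs in that order. After thinning, Nop2 (-0.71), Gar1 (-0.87) and Tsr1 (-0.55) were not called either. Tsr1 was also not called with TMM (-0.97) or DESeq2 (-0.98) factors. Of the 9 calls, 0 held under every alternative run. Nop10 remained higher, at 365.0 CPM with panobinostat and 156.3 CPM in those vehicle cells (1.22, interval 1.05 to 1.40).

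For 11 genes the call ended in this comparison, and none was newly called. They were Polr1a (-0.65), Polr1b (-0.72), Nolc1 (-0.93), Nhp2 (-0.76), Wdr43 (-0.81), Nob1 (-0.87), Rrp12 (-0.79), Nop16 (-0.86), Rrp1b (-0.62), Npm1 (-0.97) and Mybbp1a (-0.93), all still below 0. The interval of Polr1b reached 0.09, and those of the other 10 stayed below 0. The call thus held for 9 of the 20 genes, a share close to the 45.7% (445 of 973) among all genes called lower against all vehicle cells. Fbl (-0.57) and Rrn3 (-0.61) were not called in either comparison, and Myc had a ratio of -0.22 with an interval of -0.53 to 0.10. Mxi1 stood at 38.6 CPM with panobinostat and 17.2 CPM in those vehicle cells, and was called higher again. Mxd1 was called higher too (1.81), from 5 UMIs in those vehicle cells, and Mxd4 had a ratio of -0.34.

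A cell with few UMIs can hold 0 mitotic UMIs by its depth, so a set matched on mitotic UMIs per 1000000 was added after seeing the data. It holds the 822 vehicle cells with no more than 203.6 mitotic UMIs per 1000000, the 95th percentile of panobinostat cells, and a median of 26119 UMIs. The set was not matched on S-phase genes. Of these, Mcm2, Mcm3, Rrm2, Pclaf and Dtl were called lower with panobinostat and the others were not called. Among the others, Mcm5 (-2.26), Cdc6 (-3.33), Cdc45 (-1.61) and Clspn (-1.07) did not pass 10 CPM, and their intervals lay below 0. Rrm1 (0.32) had an interval above 0. Rrm2 stood at 12.7 CPM with panobinostat and 31.9 CPM in the matched cells, and Tyms at 17.6 CPM in both. Against the matched cells 7 of 44 ribosome biogenesis genes were at least 2-fold lower and 1 was higher, and the median ratio was -0.55. Among all 8670 genes past 10 CPM, 6.86% were lower and 9.03% higher, and their median was -0.01. The 7 were Gnl3 (-1.50), Nop56 (-1.38), Dkc1 (-1.23), Ubtf (-1.19), Utp20 (-1.18), Ncl (-1.10) and Npm1 (-1.08), and Nop10 was higher (1.09). Rrn3 stood at 24.5 CPM both with panobinostat and in the matched vehicle cells, and the interval of its ratio, -0.13 to 0.13, included 0.

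Within the vehicle library, levels of most of these genes were higher in cells with mitotic UMIs than in cells without, by less than 2-fold. Of 44 genes past 10 CPM, 41 had a ratio above 0 and in 22 the interval was above 0, but 0 were at least 2-fold higher and 0 lower. Among all 8512 genes past 10 CPM in this comparison 4.80% were higher and 1.32% lower. The median log2 ratio was 0.34 for the 44 genes and 0.02 for all genes. Dkc1 had the highest ratio, at 0.99 (interval 0.64 to 1.37). Its level was 76.8 CPM in the 2768 vehicle cells with mitotic UMIs (from 6838 UMIs) and 38.6 CPM in the 86 without. Nolc1 (0.66), Wdr43 (0.65), Ncl (0.58) and Npm1 (0.55) followed the same direction. Myc (-0.08), Fbl (-0.01) and Rrn3 (-0.33) had ratios below 0, each with an interval that included 0.

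**Figure D4:**
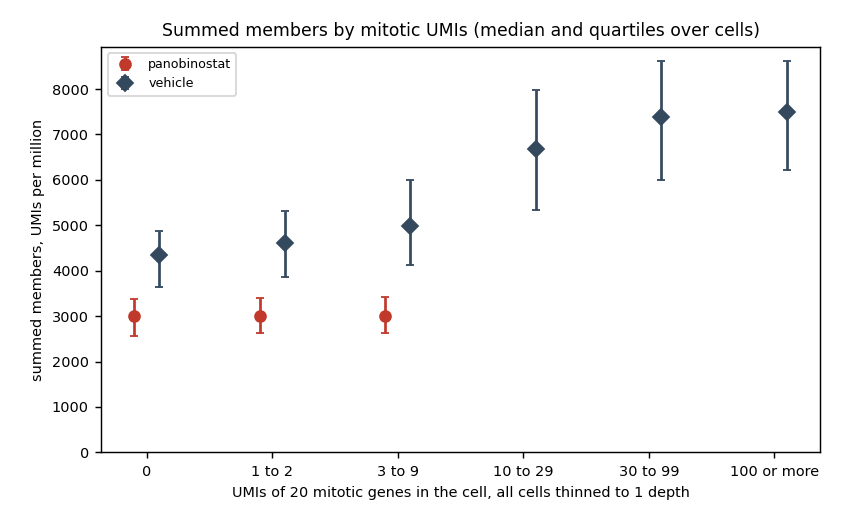
Summed UMIs of the 45 genes per 1000000 UMIs in panobinostat cells (circles) and vehicle cells (diamonds), with all cells thinned to 18663 UMIs and binned by their UMIs of 20 mitotic genes. Points are medians and bars quartiles over cells, and in each of the 3 bins that hold at least 20 cells of both groups the panobinostat median (3001) lies below the vehicle median (4340 to 4983).

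The same pattern appeared over the range of mitotic UMIs. After thinning, cells with 0 mitotic UMIs had a median of 3001 summed UMIs per 1000000 with panobinostat (495 cells) and 4340 with vehicle (124 cells). At 1 to 2 mitotic UMIs the medians were 3001 with panobinostat (1159 cells) and 4608 with vehicle (384 cells), and at 3 to 9 they were 3001 with panobinostat (560 cells) and 4983 with vehicle (447 cells). Vehicle cells with 10 to 29 mitotic UMIs had a median of 6671, those with 30 to 99 one of 7394 and those with 100 or more one of 7502, while 7 panobinostat cells held 10 to 29 and 0 held more. Panobinostat cells thus lay at one level over the bins they filled, and vehicle cells spread from 4340 to 7502. Without Ncl and Npm1 the medians at 0 mitotic UMIs were 2036 with panobinostat and 2358 with vehicle.

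The wider pathway differed by less. Of 132 other ribosome biogenesis genes in the matrix, 123 passed 10 CPM, 20 of them were lower with panobinostat and 0 higher, and the median log2 ratio was -0.43. That is 16.3% called lower, where all genes past 10 CPM had 11.0% lower and 9.85% higher. Exosc8, a subunit of the RNA exosome that trims rRNA precursors, was the lowest at 11.4 CPM with panobinostat and 78.4 CPM with vehicle (-2.78, interval -2.87 to -2.69). It stood at 21.4 CPM in vehicle cells without mitotic UMIs, so that its ratio there was -0.91. Tcof1, which encodes the Pol I cofactor treacle, stood at 15.5 CPM with panobinostat and 57.1 CPM with vehicle (-1.88), and had a ratio of -0.43 against vehicle cells without mitotic UMIs. The exosome nuclease Exosc10 stood at 12.7 CPM with panobinostat and 34.3 CPM with vehicle (-1.44), and the small subunit factor Rrp7a at 27.4 CPM with panobinostat and 68.9 CPM with vehicle (-1.33). Against vehicle cells without mitotic UMIs the ratios were -1.52 for Exosc10 and -1.41 for Rrp7a.

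The highest ratios of the wider pathway stayed under 2-fold. They were those of 4 large subunit factors: Rbm28 at 170.5 CPM with panobinostat and 100.1 CPM with vehicle (0.77), Nsa2 (0.44), Tex10 (0.44) and Las1l (0.40). Against vehicle cells without mitotic UMIs, 6 of 122 genes past 10 CPM were lower (Exosc10, Rrp7a, Urb2, Utp18, Ppan and Rrp8), 0 were higher and the median was -0.21. This share of 4.92% lower lies under the 7.84% of all genes in that comparison, so these calls do not set the wider pathway apart. Within the vehicle library 3 of 125 (2.4%) were at least 2-fold higher in cells with mitotic UMIs than in cells without. They were Exosc8 (1.89), Tcof1 (1.47) and Tsr2 (1.27). All genes past 10 CPM in that comparison had a larger share higher, 4.80%. On UMIs per cell without scaling the medians of the wider pathway were 0.09 against all vehicle cells and 1.01 against those without mitotic UMIs, so their direction depended on the scale.

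**Figure D5:**
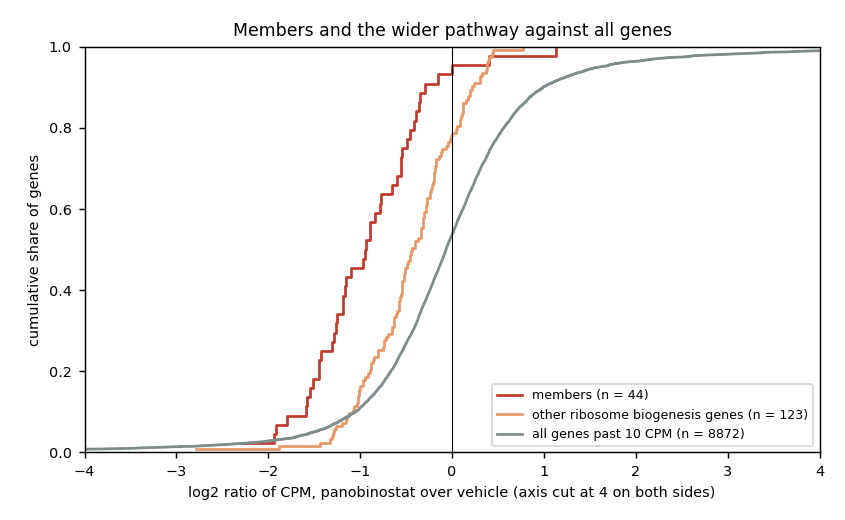
Cumulative share of genes by log2 ratio of CPM, panobinostat over vehicle, for the 44 ribosome biogenesis genes past 10 CPM (named members in the legend), 123 other ribosome biogenesis genes and all 8872 genes past 10 CPM. The curve of the 44 genes lies furthest to the left (median -0.95), that of the other ribosome biogenesis genes lies between (median -0.43), and all genes centre near 0 (median -0.07).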

How the data were processed

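Libraries were droplet-based and read the 3′ ends of transcripts, per the labels' protocols. The submitters' processing notes name mm10 and Cell Ranger 3.0.1 without giving their roles. The deposited matrix holds raw UMI counts for 19394 genes and 5135 cells, and the authors' filters, annotation and use of strand are not given in the sources used here. Barcodes end in a mark read as control (vehicle) or as the drug, and 0 columns were left unused. All deposited cells were kept, no doublets were called and no clusters were made.

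Counts were summed over cells and scaled to 1000000 UMIs (CPM). Ratios have exact conditional binomial (Clopper-Pearson) 95% intervals, levels exact Poisson ones and shares exact binomial ones, for counting error only. A gene with 0 UMIs in a library is limited to 3 counts, or 0.0288 CPM with panobinostat and 0.0331 CPM with vehicle. Cells were thinned without replacement to the 10th percentile of cell totals. The genes, the lists, the motifs and the comparisons were chosen with earlier results of these data known. The ETS core was added after the promoter windows were read. Described in full are, per role, the 3 genes with the lowest and the 1 with the highest ratio past 10 CPM, with Myc, Ncl, Npm1, Fbl, Polr1a, Ubtf and Rrn3 always included, genes whose call changed without mitotic cells, the 4 lowest and 4 highest other ribosome biogenesis genes and the MYC partners called. Other genes were named after their values were seen, and 1 marker gene is not reported here.

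Alternatives were other scalings (edgeR 4.0.16 TMM, DESeq2 1.42.0, the median gene set to 0, and UMIs per cell), other floors and folds, thinning, a mean over cells and other choices of cells. The code was tested on simulated counts. Gene coordinates are those of GENCODE M21 on GRCm38, matched by symbol, and 18 of the 45 genes overlap a gene on the other strand. Versions were R 4.3.3, Python 3.11.15, scipy 1.17.1 and numpy 2.4.6.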

Additional observations from a re-analysis of the deposited data

How the results depend on the processing

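No paired analysis was possible because each treatment has 1 library. For the same reason leaving out a replicate could not be tried. Against all vehicle cells, 20 genes were lower with centring on the median gene, without a floor, after thinning, without the 5% of cells with the most UMIs, without cells holding endothelial UMIs and as a mean over cells. The count was 25 with TMM and with DESeq2 factors, 30 at a fold of 1.5, 13 of 28 genes with a floor of 50 CPM and 7 on UMIs per cell without scaling, where the median was -0.42. Among all 8872 genes past 10 CPM, 973 were lower with CPM, 1208 with TMM factors, 1224 with DESeq2 factors and 2059 at a fold of 1.5. All genes had 369 lower with a floor of 50 CPM, and 438 lower and 2036 higher on UMIs per cell. The median over all genes was -0.18 with TMM factors and -0.19 with DESeq2 factors, against -0.07 with CPM. Nop10 was called higher under every alternative run in both comparisons. For the other ribosome biogenesis genes against all vehicle cells, UMIs per cell gave 2 lower, 1 higher and a median of 0.09, a floor of 50 CPM gave 11 lower, and a fold of 1.5 gave 43 lower and 1 higher.

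Against vehicle cells without mitotic UMIs, UMIs per cell gave 0 genes lower, 7 higher and a median of 0.61, with ratios of 0.16 for Gar1, 0.20 for Tsr1 and 0.10 for Nop2. A floor of 50 CPM gave 4 lower, a fold of 1.5 gave 23 lower and 2 higher, and thinning, repeated in 12 draws after seeing the data, gave 5 to 9 lower and 1 to 2 higher. Over the 4 vehicle cells with neither mitotic nor S-phase UMIs, 11 genes were lower and the ratio of Tsr1 was 0.17. Those cells hold 65335 UMIs in all, so any gene detected in them passes 10 CPM. The calls of Ubtf, Gar1, Utp20, Tsr1, Nop2 and Gnl3 ended over these cells. Fbl, Nolc1, Rrp9, Noc4l, Ebna1bp2, Noc2l, Npm1 and Mybbp1a were newly called lower. The other choices of vehicle cells gave 7 lower with medians of -0.60 to -0.49, and panobinostat cells limited to 0 mitotic UMIs gave 9 with a median of -0.54. For the other ribosome biogenesis genes, TMM factors gave 3 lower, UMIs per cell 0 lower, 62 higher and a median of 1.01, a floor of 50 CPM 1 lower, and a fold of 1.5 gave 28 lower and 3 higher. Among all 8766 genes past 10 CPM, 687 were lower with CPM, 612 with TMM factors, 774 after thinning and 1628 at a fold of 1.5. All genes had 223 lower with a floor of 50 CPM, and 71 lower and 5462 higher on UMIs per cell. Fewer genes pass a floor of 50 CPM than one of 10 CPM, so counts at these floors are not shares of the same total. Over the 4 vehicle cells named above, 402 of all genes were lower. The cause of these changes was not tested beyond the scale and the floor themselves.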
